A study of Mus musculus with 4 samples.

Results

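The chemokine ligands Ccl2, Ccl3, Ccl4, Ccl5, Ccl12, Cxcl9, Cxcl10, Cxcl12, Cxcl16 and Cx3cl1 were followed in RNA-Seq libraries of mouse retina. The members were taken by symbol, and all 10 were found among the 48897 genes of the deposited count table. The retinas came from C57BL/6 mice whose genotype is given as "wide type". On postnatal day 3 the left eye received 0.6 nmol of miR-124-3p antagomir in 1 μl by intravitreal injection, and retinas of these eyes on postnatal day 9 form the anti-miR-124 group. The right eye received the same amount of a scrambled sequence and forms the NC group, so both groups share the injection, the solvent and the age. Each group has 2 libraries made from mixed retinas of at least 2 litters, and no library comes from an uninjected eye. The eye and the injected sequence cannot be told apart, since every anti-miR-124 library is from left eyes. A left-eye and a right-eye library carry the same number in the table, and these are called pair A (libraries NC-A and anti-A) and pair B (NC-B and anti-B). The sources do not say that the same animals gave both libraries of a pair, nor that the mixed retinas of a group came from separate mice for each library. P-values therefore measure the spread between these libraries only.

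Chemokines are small secreted proteins that guide the movement of leukocytes and of some neural cells through G protein-coupled receptors. They are named after the spacing of their first cysteines, which are adjacent in CC chemokines, separated by a single residue in CXC chemokines and by a longer stretch in Cx3cl1. In the retina, neurons are a known source of Cx3cl1, whose receptor Cx3cr1 marks microglia, while Ccl2 and the related CC ligands and the interferon-inducible Cxcl9 and Cxcl10 are known as inflammatory ligands made by microglia and Müller glia.

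Between 16317239 and 18726963 reads were counted on genes in each library. The tissue label was checked with photoreceptor markers. Their summed level lay between 8933 and 10240 TPM (a level per gene length, scaled to the same total in each library), and the photoreceptor transcription factor Crx lay between 1618 and 1793 TPM. In NC-A, 21 lens genes held 6.53% of all TPM, against 0.0148% to 0.0201% in the other 3 libraries. The ligands' TPM in that library were therefore also computed without the lens genes. Cx3cl1, for example, then had 27.6 in place of 25.8 TPM there. Library anti-B stood apart from the other 3 in many microglia and macrophage genes, whose values are given beside the results they accompany.

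Levels per gene length separated the ligands into a steadily detected group and a group near the detection limit. Cx3cl1 had the highest level, with a median of 28.6 TPM over the 4 libraries and a range from 25.8 to 35.9. Cxcl16 had a median of 7.49 TPM (5.24 to 7.75) and Cxcl12 of 4.95 TPM (4.58 to 7.03). Cxcl16 lay above Cxcl12 within each of the 4 libraries, although their ranges over the libraries overlapped. Both lay below every value of Cx3cl1. The remaining 7 ligands had medians from 1.32 TPM for Ccl3 down to 0 for Ccl5 and Cxcl9, in the order Ccl3, Cxcl10, Ccl12, Ccl4, Ccl2, Ccl5 and Cxcl9. The ranges of neighbours in this order overlapped, and through anti-B (6.90 TPM) that of Ccl3 also overlapped that of Cxcl12. For these ligands a TPM value rests on few reads, as 3 counts of Ccl3 correspond to 0.668 to 0.727 TPM, depending on the library.

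**Figure D1:**
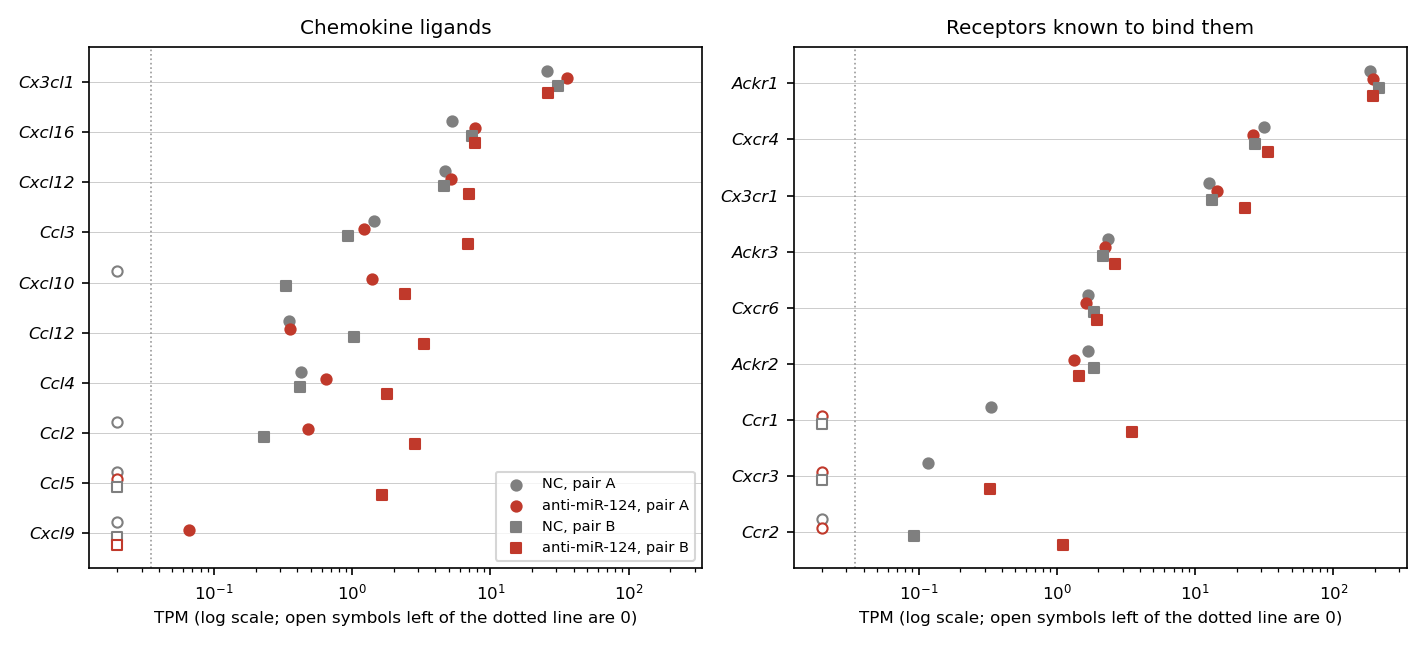
TPM on a log scale for the 10 chemokine ligands (left) and 9 receptors known to bind them (right), with a symbol for each of the 4 libraries and open symbols for 0. Cx3cl1, Cxcl16 and Cxcl12 have values above 4 TPM in every library, while Ccl5 was counted in anti-B alone.

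Of the 10 ligands, 3 (Cxcl12, Cxcl16 and Cx3cl1) passed the filter on low counts and entered the edgeR fit (quasi-likelihood test, TMM-normalized counts, where TMM is a scaling that centres most genes). None of the 3 had an adjusted p-value under 0.05 or an unadjusted p-value under 0.05. Over all 17766 genes tested, 0% had an adjusted and 3.91% an unadjusted p-value under 0.05. The fitted differences were positive for all 3, with a median log2 fold change of 0.25, beside 0.0007 over all genes tested.

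Cxcl12, on chromosome 6 from 117168535 to 117181368 (plus strand), is the homeostatic CXC ligand of Cxcr4 and Ackr3 and takes part in the guidance of vessels and neurons. It had 178 counts in NC-A, 195 in anti-A, 178 in NC-B and 286 in anti-B. Library anti-B was highest and the other 3 were close to each other. Both anti-miR-124 libraries lay above both NC libraries after normalization, by a narrow margin in pair A (normalized counts of 11.1 in NC-A against 11.4 in anti-A, scaled to a library of equal size). The mean level was 4.63 ± 0.0769 TPM (SD, n = 2) in the NC group and 6.12 ± 1.28 TPM in the anti-miR-124 group. The narrow NC spread depends on the lens genes of NC-A. Without them Cxcl12 had 5.01 TPM in NC-A, beside 4.58 in NC-B and 5.22 in anti-A. The fitted log2 fold change was 0.35 (standard error 0.18, unadjusted p = 0.095 and adjusted p = 0.989 by edgeR's quasi-likelihood test). Within pairs, the ratio of normalized counts was 1.03 (95% interval 0.839 to 1.27) in pair A and 1.54 (1.27 to 1.87) in pair B. These intervals are exact and cover counting error only. The study singled out Cxcl12 from these libraries, so its direction here is no independent evidence. The study also measured its candidate genes by RT-qPCR and reported a trend similar to that of its RNA-Seq. Without anti-B the log2 fold change was 0.13.

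Cxcl16, on chromosome 11 from 70454232 to 70459984 (minus strand), encodes a membrane-bound CXC ligand that is shed by Adam10 and binds Cxcr6. Its counts were 70 in NC-A, 101 in anti-A, 100 in NC-B and 111 in anti-B. Library NC-A was low and the other 3 were similar. The fitted log2 difference was 0.25 (standard error 0.22, adjusted p = 0.989 by the same test), and it was 0.09 without NC-A. The ratios of 1.36 (0.994 to 1.87) in pair A and 1.06 (0.804 to 1.41) in pair B had intervals that included no difference. Its position overlaps that of Zmynd15 on the other strand by 363 bases, and whether reads were counted by strand is not given in the sources used here.

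Cx3cl1, on chromosome 8 from 94772180 to 94782427 (plus strand), encodes fractalkine, the membrane-anchored ligand through which neurons address microglia. It had 430 counts in NC-A, 589 in anti-A, 530 in NC-B and 469 in anti-B. The pairs had opposite directions, with ratios of 1.29 (1.14 to 1.47) in pair A and 0.848 (0.747 to 0.962) in pair B. Each interval excluded a ratio of 1 as far as counting error goes, and the groups overlapped. The log2 fold change over both pairs was 0.08 (standard error 0.16, adjusted p = 0.989 by the same test). It was 0.30 without anti-B, and -0.17 without anti-A. The 13 markers of retinal ganglion, amacrine, horizontal and bipolar cells also had opposite directions, with ratios of their summed counts of 1.16 (pair A) and 0.852 (pair B), and their part in the Cx3cl1 values was not tested.

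**Figure D2:**
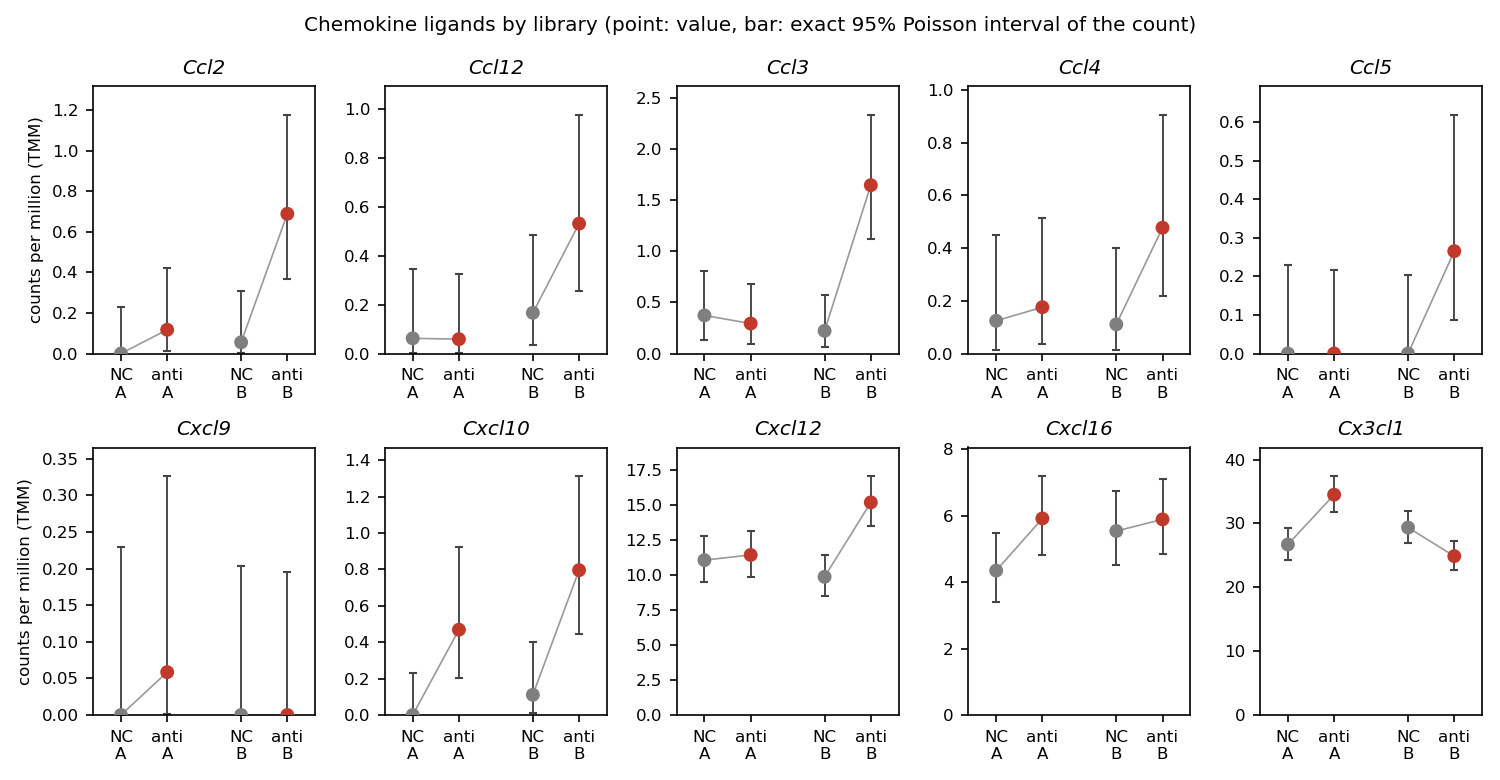
TMM-normalized counts (CPM, linear axes from 0) of each ligand in the NC (grey) and anti-miR-124 (red) libraries, with lines joining the libraries of a pair and bars for the exact 95% Poisson interval of the count. Cxcl10 was higher in both pairs, the CC ligands were higher mainly in pair B, and Cx3cl1 had opposite directions in the pairs.

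The other 7 ligands lay under the filter on low counts and were not tested in the main fit. Together they had 9 counts in NC-A, 20 in anti-A, 12 in NC-B and 83 in anti-B. An exact permutation test of 2 against 2 libraries cannot give a two-sided p-value below 0.333, so none was used, and these ligands are described by their counts.

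Cxcl10, on chromosome 5 from 92346638 to 92348889 (minus strand), is an interferon-inducible CXC ligand of Cxcr3. It had 0 counts in NC-A, 8 in anti-A, 2 in NC-B and 15 in anti-B. Both anti-miR-124 libraries were above both NC libraries. In pair A the level was at least 2.52-fold higher in the anti-miR-124 library, with the NC library set to a floor of 3 counts. In pair B the ratio was 7.18 (95% interval 1.67 to 64.7, counting error only). When all 31982 genes with a count were fitted without a filter, the log2 fold change of Cxcl10 was 3.30 (standard error 0.95, adjusted p = 0.0423 by edgeR's quasi-likelihood test), one of 379 genes past the threshold. No other ligand of the 10 passed. Cxcl10 also entered 3 of the fits that left out a library, where its adjusted p-value was 0.324 without anti-A, 1.00 without NC-A and 0.999 without NC-B. The p-values of the unfiltered fit were unlike those of the filtered one for well-counted genes too, as the adjusted p-value of the protease gene Ctss went from 0.989 to 1.78e-26. Its position lies wholly inside that of Art3 on the other strand, which had 10 and 10 counts in pair A and 5 and 15 in pair B.

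Cxcl9, on chromosome 5 from 92321331 to 92328079 next to Cxcl10, is also an interferon-inducible ligand of Cxcr3. It had 1 count in anti-A and 0 in the other 3 libraries. A count of 0 allows up to 3 counts, which is 0.182 to 0.195 TPM in these libraries, and a difference was not detectable at this depth.

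Ccl3 and Ccl4 are inflammatory CC ligands that attract macrophages and T cells, and Ccl3 binds Ccr1. Ccl3, on chromosome 11 from 83647843 to 83649378 (minus strand), had 6 counts in NC-A, 5 in anti-A, 4 in NC-B and 31 in anti-B. It was high in a single library, and the groups overlapped. The ratio was 0.786 (0.19 to 3.09) in pair A and 7.42 (2.63 to 29.0) in pair B. Ccl4, at 83648624 to 83664683 on the plus strand of the same chromosome, had 2 and 3 counts in pair A and 2 and 9 in pair B, so the anti-miR-124 library was higher in both pairs, by 1 count in pair A. Its ratio in pair B was 4.31 (0.892 to 41.0). The positions of Ccl3 and Ccl4 overlap by 755 bases on opposite strands in the table, so that without strand some reads cannot be assigned to either.

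Ccl2 and Ccl12 are CC ligands of Ccr2, which attract monocytes. Ccl2, on chromosome 11 from 82035577 to 82037452 (plus strand), had 0 counts in NC-A, 2 in anti-A, 1 in NC-B and 13 in anti-B. The ratio in pair B was 12.5 (1.87 to 529), an interval whose width reflects the single count in the NC library. Ccl12, from 82101845 to 82103399 on the same strand, had 1 and 1 counts in pair A and 3 and 10 in pair B, a ratio of 3.19 (0.822 to 18.1) in pair B. Ccl5, from 83525778 to 83530518 on the minus strand, is a CC ligand that attracts T cells and binds Ccr1. It had 5 counts in anti-B and 0 in the other 3, which is at least 1.60-fold higher in pair B against the floor of 3 counts. The position of Ccl5 lies wholly inside that of Gm32650 on the other strand, which had 7 and 0 counts in pair A and 1 and 2 in pair B. Ccl2 and Ccl4 had both anti-miR-124 libraries above both NC libraries, and Ccl12, Ccl3 and Ccl5 did not.

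Over all 10 ligands, 5 (Ccl2, Ccl4, Cxcl10, Cxcl12 and Cxcl16) were higher in anti-A than in NC-A and in anti-B than in NC-B, and 0 were lower in both pairs. Among the 31982 genes with a count, 17.8% were higher in both pairs. The same 5 ligands had both anti-miR-124 libraries above both NC libraries, a pattern found for 13.3% of genes with a count. The highest of the 4 values was in anti-B for 7 ligands (Ccl2, Ccl3, Ccl4, Ccl5, Ccl12, Cxcl10 and Cxcl12), against 27.5% of genes with a count. Differences of 1 or 2 counts decide the pattern in pair A for Ccl2 and Ccl4.

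Promoter sequence was compared for the ligands with an entry in the RefSeq table (GRCm38.p6), which were Ccl3, Ccl12, Cxcl9, Cxcl10, Cxcl12 and Cx3cl1. The 250 bases before the start are shown for 3 ligands. Cxcl10 and Cxcl12 were higher in both pairs, Cxcl12 by a narrow margin in pair A, and Ccl3 was higher in pair B only. Capitals mark matches to the IRF motif AANNGAAA, which interferon regulatory factors bind, or to the kappa B motif, which NF-kB binds. Both strands were searched.
Cxcl10 (chr5:92348890-92349139, minus strand): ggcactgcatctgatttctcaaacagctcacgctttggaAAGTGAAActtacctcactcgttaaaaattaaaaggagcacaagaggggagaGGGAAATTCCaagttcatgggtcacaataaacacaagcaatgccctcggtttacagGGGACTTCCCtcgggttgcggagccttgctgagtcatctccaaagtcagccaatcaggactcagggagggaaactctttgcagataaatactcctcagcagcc
Ccl3 (chr11:83649379-83649628, minus strand): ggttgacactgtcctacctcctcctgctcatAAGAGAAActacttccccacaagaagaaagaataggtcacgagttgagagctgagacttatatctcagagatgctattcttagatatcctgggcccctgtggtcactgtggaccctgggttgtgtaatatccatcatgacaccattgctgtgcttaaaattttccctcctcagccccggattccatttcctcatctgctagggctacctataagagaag
Cxcl12 (chr6:117168285-117168534, plus strand): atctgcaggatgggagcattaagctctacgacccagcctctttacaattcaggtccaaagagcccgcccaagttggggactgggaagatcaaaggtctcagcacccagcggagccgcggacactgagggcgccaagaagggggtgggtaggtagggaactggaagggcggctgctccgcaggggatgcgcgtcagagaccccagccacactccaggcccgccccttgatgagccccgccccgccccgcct

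The kappa B motif was matched 2 times in Cxcl10 and in no other of the 6 promoters, while 3.9% of 32851 promoters of the same length held it. The IRF motif was matched in Cxcl10 and Ccl3, against 21.3% of all promoters. The motifs did not overlap each other. The promoters of Cxcl12 and Cx3cl1 had 64.4% and 64.8% G and C, and those of Ccl3, Ccl12, Cxcl9 and Cxcl10 between 44.4% and 48.4%, with a median of 52.4% over all promoters. A match is a description of letters and not a measured binding site.

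The receptors give the other side of the ligand values. Of 23 chemokine receptors in the table, 19 had a count, 10 were tested and 0 had an adjusted or unadjusted p-value under 0.05. Of the tested receptors, 3 had a positive and 7 a negative fitted difference, with a median log2 fold change of -0.06. Cx3cr1, the receptor of Cx3cl1, had 12.6 TPM in NC-A, 14.3 in anti-A, 13.3 in NC-B and 22.8 in anti-B. The log2 difference between groups was 0.47 (standard error 0.21, unadjusted p = 0.0615 and adjusted p = 0.989 by edgeR's quasi-likelihood test), and 0.11 without anti-B. Without anti-A it was 0.75 and passed the threshold (adjusted p = 0.0208 by the same test). Cxcr4, the signaling receptor of Cxcl12, showed a log2 difference of -0.03 (standard error 0.17), with 31.4 and 26.3 TPM in pair A and 27.3 and 33.7 in pair B. Ackr3, the scavenging receptor of Cxcl12, had 2.14 to 2.65 TPM. Cxcr6, the receptor of Cxcl16, lay between 1.62 and 1.95 TPM with no library apart, and it lies within the position of Fyco1 on the other strand. The atypical receptors Ackr1 and Ackr2 bind inflammatory chemokines without signaling through G proteins. Ackr1 had 183 to 214 TPM, the highest level of the receptors, and Ackr2 had 1.34 to 1.87 TPM.

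The receptors of the inflammatory CC ligands were counted mostly in 1 library. Ccr2 had 0 counts in NC-A and anti-A, 2 in NC-B and 25 in anti-B. Ccr1 had 5 and 0 counts in pair A and 0 and 56 in pair B. Both were under the filter, and both passed the threshold when no filter was used, with adjusted p-values of 0.0218 for Ccr2 and 7.97e-06 for Ccr1 by edgeR's quasi-likelihood test, as did Cx3cr1 (0.0478). With a filter at a mean of 10 counts, Ccr1 was tested and did not pass (adjusted p = 0.983 by the same test). Cxcr3, the receptor of Cxcl9 and Cxcl10, had 1 and 0 counts in pair A and 0 and 3 in pair B.

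**Figure D3:**
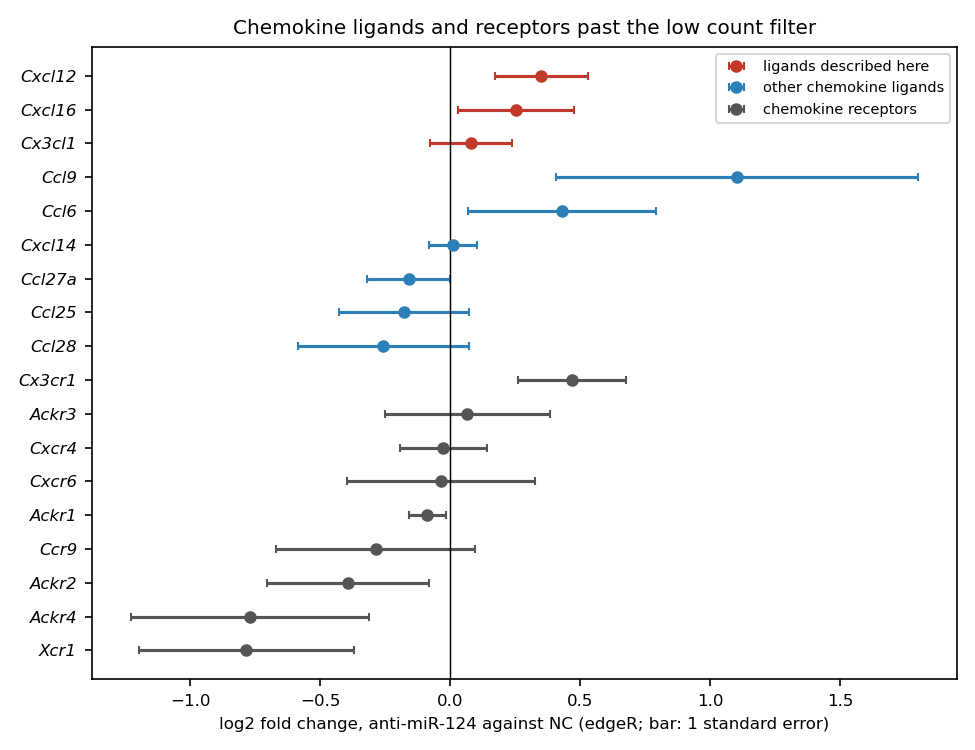
Log2 fold changes of the 3 tested ligands (red), 6 other tested chemokine ligands (blue) and 9 of the 10 tested receptors (grey), anti-miR-124 against NC, with bars of 1 standard error. None of those drawn passed the threshold, and the largest difference, 1.10 for Ccl9, also had the widest bar.

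The rest of the chemokine family and the proteases that release or trim chemokines were read from lists of their own. Of 30 other chemokine ligands, 23 had a count, 6 were tested and 0 had an unadjusted p-value under 0.05. Cxcl14, a CXC ligand expressed in many epithelia and neurons, had 36.1 to 42.9 TPM and a log2 difference of 0.01 (standard error 0.09). Ccl9 had 25 and 17 counts in pair A and 10 and 65 in pair B (log2 fold change 1.10, standard error 0.70), and so was highest in the library that was also highest for Ccl3. Of the 8 proteases, 2 had an unadjusted p-value under 0.05, against 3.91% of all genes tested. Mmp12, the macrophage metalloelastase, had 11 and 3 counts in pair A and 8 and 328 in pair B. Ctss, a lysosomal protease that can release Cx3cl1, had 261 and 295 in pair A and 253 and 1115 in pair B. Their adjusted p-values were 0.989, and without anti-B their log2 fold changes were -1.63 and 0.20. Adam10, which sheds Cxcl16 and Cx3cl1, had 94.9 to 103 TPM and a log2 difference of 0.01 (standard error 0.08), and Adam17 had -0.03 (standard error 0.13).

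Gene lists that mark other cell types or states were read beside the ligands. The 20 microglia markers, all with counts, summed to 316 TPM in NC-A, 307 in anti-A, 251 in NC-B and 735 in anti-B. Their sum was thus highest in the same library as the CC ligands. The markers were not uniform, as 14 of the 20 had their highest normalized count in anti-B, beside 5441 of the 17766 genes tested. P2ry12, Gpr34, P2ry13, Sall1, Siglech and Olfml3 had theirs in another library. More microglia and more RNA of the marker genes per cell cannot be told apart in bulk libraries. Of the 20, 5 had an unadjusted p-value under 0.05, all higher, against 3.91% of all genes tested. Higher in both pairs were 8 of the 20, against 17.8% of genes with a count and 4044 of the 17766 genes tested. The 15 monocyte and neutrophil markers summed to 93.4 to 101 TPM in 3 libraries and to 571 TPM in anti-B, of which Lyz2, also made by activated microglia, held 440 TPM. Fn1, which encodes fibronectin and is also expressed by other cell types, had 49.4 TPM in NC-A, 58.1 in anti-A, 59.4 in NC-B and 116 in anti-B. The monocyte marker Ccr2 was also highest in anti-B, with the counts given above. Of the 15, 10 had a count, and the other 5 (Ly6c2, Ly6g, Mpo, Elane and Chil3) were at 0 in all 4 libraries. The 15 T and NK cell markers summed to 9.19 TPM in NC-A, 9.97 in anti-A, 6.76 in NC-B and 11.4 in anti-B. This sum too was highest in anti-B, with ratios of the summed counts of 1.03 (pair A) and 1.68 (pair B). Singly, 4 of the 15 were highest in anti-B, against 27.5% of genes with a count. The 4 that were tested (Cd4, Cd8a, Lck and Zap70) had positive fitted differences and 0 had an unadjusted p-value under 0.05, while Cd3d, Cd3e, Cd8b1, Ncr1 and Gzma were at 0 in all 4 libraries. The 16 reactive gliosis genes, which include Gfap, summed to 223 to 332 TPM in 3 libraries and to 528 in anti-B, and 0 of them were higher in both pairs.

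The 28 interferon-stimulated genes had a different distribution over the libraries. They summed to 78.6 TPM in NC-A, 229 in anti-A, 90.9 in NC-B and 409 in anti-B. Of the 28, 25 were higher in both pairs, and so was Cxcl10. This pattern was found for 17.8% of genes with a count and for 4044 of the 17766 genes tested. Of the 26 tested, 23 had an unadjusted p-value under 0.05, against 3.91% of all genes tested, and 0 an adjusted one. The part of these genes and of the marker lists above in the ligand values was not tested.

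**Figure D4:**
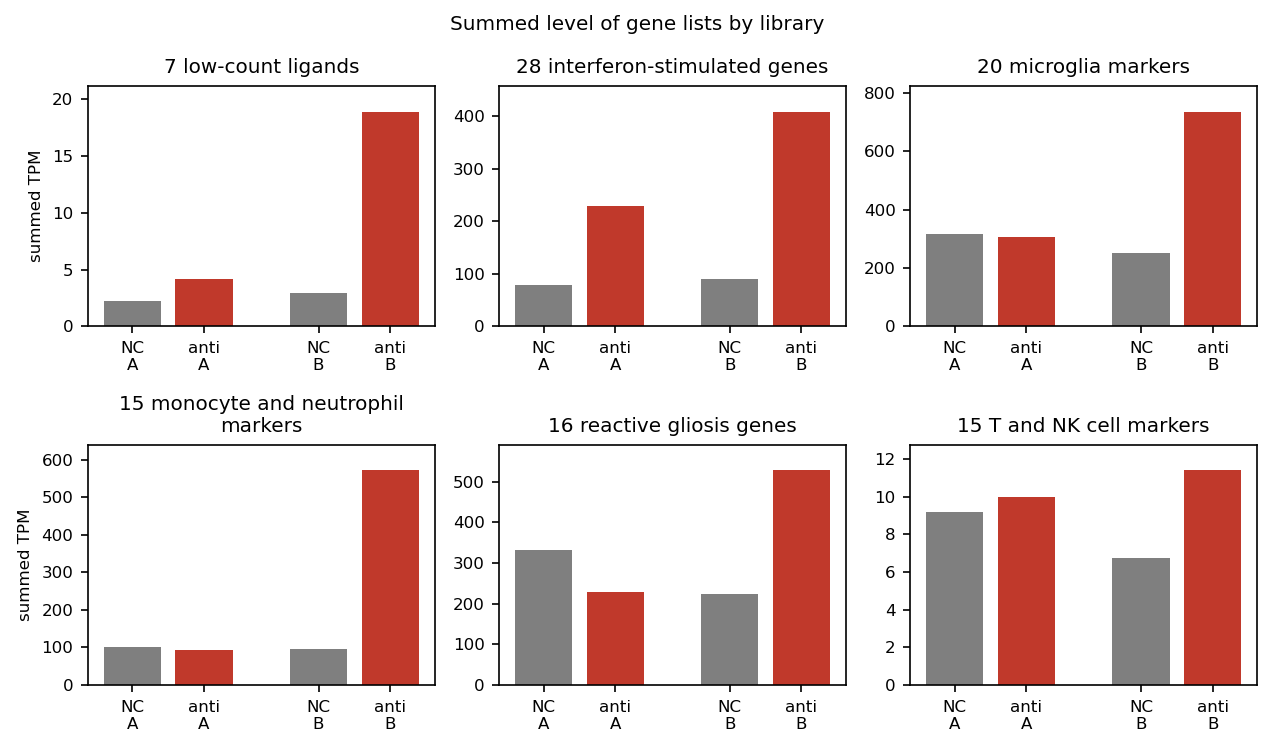
Summed TPM in each library (bars, axes from 0) for the 7 low-count ligands and for 5 marker lists, NC in grey and anti-miR-124 in red. The sum of the interferon-stimulated genes is higher in both anti-A and anti-B within their pairs, and every sum shown is highest in anti-B.

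The genes with the most similar pattern over the 4 libraries were found for the 3 tested ligands by the Euclidean distance between mean-centred log2 CPM, among 15727 genes with a mean of at least 20 counts. For Cxcl12 they were Dnd1 (distance 0.0099) and Traf5 (0.0354). For Cxcl16 the nearest named gene was Mrpl35 (0.032), after an unnamed Ensembl gene (0.0266). For Cx3cl1 they were Syt13 (0.0216) and Prrt3 (0.0402), which also had opposite directions in the pairs, with 620 and 860 counts of Syt13 in pair A and 758 and 679 in pair B. With 4 libraries such likeness is a description only.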

How the data were processed

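Unnormalized counts of reads on genes were deposited by the authors. The 4 RPKM columns of the same table were not used here. The processing notes of the submitters name HISAT2 and mm9, but 99.9% of 30499 gene symbols shared with GENCODE M21 overlap their GRCm38 position, including all 10 ligands, so positions are given on GRCm38. The counting tool and its use of strand are not given in the sources used here. Libraries were assigned to groups by the eye in the column name. The members and gene lists were chosen with earlier results of these data known.

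TPM was calculated from deposited counts and lengths. Groups were compared with edgeR 4.0.16 in R 4.3.3 (quasi-likelihood test, TMM, filter on low counts with a minimum of 10, no covariate, two-sided) with Benjamini-Hochberg adjustment over all genes tested and a threshold of 0.05. The standard error was the log2 fold change divided by the root of the F statistic. Ratios within pairs have exact conditional binomial 95% intervals and counts exact Poisson intervals (scipy 1.17.1). DESeq2 1.42.0, other normalizations and filters, a replicate block and leaving out each library were alternatives. The fits were checked on simulated counts. The named genes were all members, receptors and proteases known to act on them, genes of these lists with an unadjusted p-value under 0.05, and up to 3 genes of highest level per marker list, while others were named after their values were seen. No 2 libraries were duplicates, with a chi-square value per degree of freedom of at least 3.695. Some items of the gene lists and of the motif search are not reported here.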

Additional observations from a re-analysis of the deposited data

How the results depend on the processing

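The main fit did not pair the libraries, because the shared numbers are not said to mark the same animals. The correlation of the deviations within pairs was -0.20 (13542 genes). Ratios and directions within pairs thus compare libraries that share a number and are not known to be matched. With the replicate block, the log2 fold changes of Cxcl12, Cxcl16 and Cx3cl1 were 0.34, 0.26 and 0.07, and 376 in place of 694 genes reached an unadjusted p-value of 0.05. With the numbers crossed, a pairing tried only after the data had been seen, 160 genes passed the threshold, and 1 of the ligands, 1 receptor and 1 of the other chemokine ligands had an unadjusted p-value under 0.05. Without a filter on low counts, 10 ligands, 19 receptors and 23 other chemokine ligands were tested, 1 ligand and 3 receptors passed the threshold, and 4, 3 and 3 had an unadjusted p-value under 0.05. With DESeq2's Wald test, 1 receptor (Cx3cr1) had an unadjusted p-value under 0.05. Leaving out each library in turn, Cxcl12 ranged from 0.13 to 0.54, Cxcl16 from 0.09 to 0.44 and Cx3cl1 from -0.17 to 0.30, reversing without anti-A. The number of ligands tested then ranged from 3 to 6, those with an unadjusted p-value under 0.05 from 0 to 3, and those past the threshold stayed at 0. For receptors, 0 to 2 passed the threshold (2 without anti-A) and 0 to 3 had an unadjusted p-value under 0.05, and for other ligands 0 to 2. The counts of ligands higher in both pairs (5), without overlap (5) and highest in anti-B (7) were within 1.5 times of these values under every scaling tried. With 2 libraries per group and few counts for 7 ligands, depth limits these values.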

Other observations

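Other cell types of the retina had smaller list medians than the interferon-stimulated genes. The 14 Müller glia and astrocyte markers had a median log2 difference of 0.08, with 1 of 14 at an unadjusted p-value under 0.05 (higher). The 14 endothelial and pericyte markers had a median of -0.07, with 1 of 14 lower at that threshold. The 13 markers of retinal ganglion, amacrine, horizontal and bipolar cells had a median of 0.02 and 1 higher, but the median log2 ratio was 0.24 in pair A and -0.31 in pair B. Nefl, a neurofilament gene of this list, had 449 TPM in NC-A, 695 in anti-A, 594 in NC-B and 433 in anti-B. Of the 12 rod and cone photoreceptor markers, 1 was higher and 5 were lower at that threshold, with a median of -0.07 and ratios of the summed counts of 1.02 in both pairs. Of 10 pigment epithelium markers, 8 were tested and 0 reached that threshold, with a median of 0.47 and a summed level that was lowest in NC-A (58.9 TPM) and highest in anti-A (139 TPM). Over all 17766 genes tested, 396 were higher and 298 lower at that unadjusted threshold, 3.91% together. None of these lists had a gene with an adjusted p-value under 0.05 by edgeR's quasi-likelihood test.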
